A study of Mus musculus with 12 samples.

Results

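The plasminogen activator system and the regulators of clotting were followed in mouse skeletal muscle fibroblasts through 8 genes, out of 28995 genes with a value in at least 1 of the 3 deposited tables. The genes were Plat, Plau, Plaur, Serpine2, F3, Tfpi, Thbd and Procr, chosen by their names and functions, and each was found once in every table. The choice was made with earlier results of these data known, so counts of the 8 that passed beside all genes are descriptive. The cells were primary fibroblasts of the hindlimb of wild-type C57BL/10 mice, taken at postnatal day 3, and no allele or transgene was introduced in any group. They were treated for 48 hours with 1 µM aldosterone, the steroid that activates the mineralocorticoid receptor, with 1 µM spironolactone, an antagonist of that receptor, or with the DMSO vehicle, after culture in serum stripped of steroids by charcoal in all groups. There were 4 libraries per treatment, from 2 mice with 2 plates per mouse and treatment. The cells of each mouse were pooled before they were divided over the plates, so plates are not separate animals and p-values measure the spread between these plates. Every library carries a sample number and a replicate number, each 1 or 2, and neither is tied to a mouse in the labels.

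Plasminogen is cut to plasmin, the protease that dissolves fibrin and helps cells to clear matrix, by the tissue activator and the urokinase activator, encoded by Plat and Plau. Urokinase is held at the cell surface by its receptor, Plaur, and serpins such as protease nexin-1, encoded by Serpine2, block the activators and thrombin. Clotting is started by tissue factor, encoded by F3, and held back by the tissue factor pathway inhibitor, Tfpi, and by thrombomodulin and the endothelial protein C receptor, encoded by Thbd and Procr, which turn thrombin towards activating the anticoagulant protein C.

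The libraries held 19136923 to 30219185 gene reads each (median 23833380, 12 libraries). Levels are given as RPM, the reads of a gene scaled to 1e6 gene reads in the library, with SD over n = 4 libraries, and levels of different genes are compared only as RPM per kilobase of gene length. Treatments were compared with limma on log2(normalized count + 1) over all genes of a table, with Benjamini-Hochberg adjustment, and a gene passed at an adjusted p of at most 0.05. Because libraries with the same sample number deviated together, a second fit held the sample number as a block, and its value is given where it changed a call. As a check of the response, Fkbp5, a textbook target of corticosteroid receptors, was between 11.8 and 15.3 RPM in the vehicle libraries and rose to 261 ± 15.9 RPM with aldosterone, while its level with spironolactone was 16.9 ± 2.66 RPM. All 6 fibroblast markers were above 10 RPM on average. Their sum was 38291 to 42759 RPM with vehicle, 30898 to 34969 RPM with aldosterone and 34524 to 40150 RPM with spironolactone. Nearly all of it was Col1a1 (means of 24204, 18650 and 21688 RPM in the same order) and Col1a2 (15840, 13612 and 15131 RPM). Pdgfra went the other way, with means of 134, 244 and 124 RPM. The means of Dcn, Lum and Thy1 were lower with aldosterone than with vehicle. The sum of 6 muscle markers, 4 of them at 3 reads or fewer in every library, was 19.3 to 26.6 RPM with vehicle and 6.09 to 13.4 RPM with aldosterone. With spironolactone it was 19.1 to 29.9 RPM. Nearly all of this sum was Acta1 (means of 22.8, 9.68 and 24.3 RPM with vehicle, aldosterone and spironolactone). The 5 markers of pericytes and smooth muscle, which activated fibroblasts partly share, were high, with a sum of 2722 to 3715 RPM with vehicle, 2064 to 2970 RPM with aldosterone and 2848 to 3885 RPM with spironolactone, carried by Acta2 (means of 2717, 2111 and 2805 RPM). The part of these sums in the results was not tested. Of the 7 endothelial markers, Tek had means of 18.8, 21.6 and 18.2 RPM with vehicle, aldosterone and spironolactone. Kdr had means of 1.91, 6.87 and 2.08 RPM in the same order. Pecam1 reached at most 0.419 RPM, Cdh5 0.827 RPM and Vwf 0.838 RPM in any library, and Emcn and Tie1 stayed lower. Of the 6 macrophage markers none exceeded 10 RPM on average, and Ptprc was at 3 reads or fewer in every library.

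The 8 genes spanned a 35.4-fold range of levels per length in the vehicle libraries. Thbd was highest at 163 ± 7.62 RPM per kilobase, in place 211 of the 15313 genes that averaged 10 or more reads. Serpine2 was next at 101 ± 6.16 RPM per kilobase, in place 374, and its libraries did not overlap with those of Thbd or F3. F3 had 23.1 ± 6.14 RPM per kilobase and Plau had 17.4 ± 0.732 RPM per kilobase, with overlapping libraries. Plaur, at 12.99 ± 2.37 RPM per kilobase, lay below all Plau libraries and above all Procr libraries. Procr had 5.82 ± 0.514 RPM per kilobase, Tfpi had 5.07 ± 0.714 and Plat had 4.61 ± 0.505, and each overlapped with its neighbour in this order. The order was the same in the spironolactone libraries. In the aldosterone libraries Serpine2 and Thbd exchanged places, at 93.1 ± 13.3 and 92.0 ± 7.31 RPM per kilobase with overlapping libraries, and Plat stood apart as the lowest at 3.51 ± 1.07 RPM per kilobase.

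**Figure D1:**
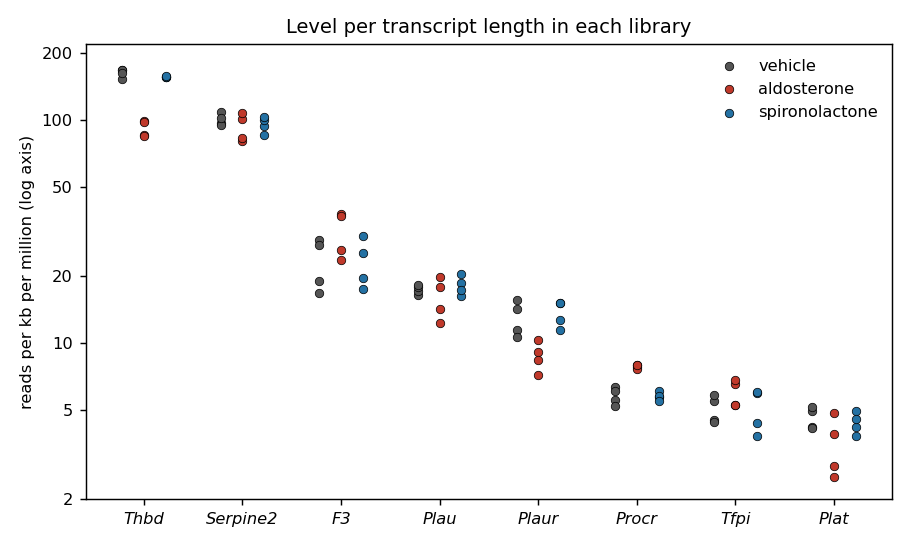
Level of each gene in RPM per kilobase of gene length (vertical log axis) in each of the 12 libraries, coloured by treatment and ordered by the vehicle mean. Thbd leaves the top place in the aldosterone libraries, where its levels overlap with those of Serpine2, while the other genes keep their order.

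The comparison of aldosterone with vehicle asks which of these genes differ after treatment with the receptor agonist, and no group combined aldosterone with an antagonist. Of the 8 genes, 3 passed the test, with Procr higher and Thbd and Plaur lower. Of the 27319 genes tested 10.4% passed, 5.68% higher and 4.74% lower. All 8 genes averaged 10 or more normalized counts. With only the 15245 such genes tested, 3033 passed, the same 3 of the 8 among them. None of the 8 passed when a log2 change of 1 or more in size was also required, although 3 passed without it, and 2.06% of all genes met both criteria. With the sample number as a block 6 of the 8 passed, 3 higher and 3 lower, beside 16.7% of all genes (8.68% higher and 8.02% lower), the added genes being F3, Tfpi and Plat. Here and below, shares with the block are over all genes, including those that averaged fewer than 10 normalized counts. The median log2 fold change was -0.09 over the 8 genes and -0.0064 over all genes tested. The plot of levels by library shows these values for every gene.

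**Figure D2:**
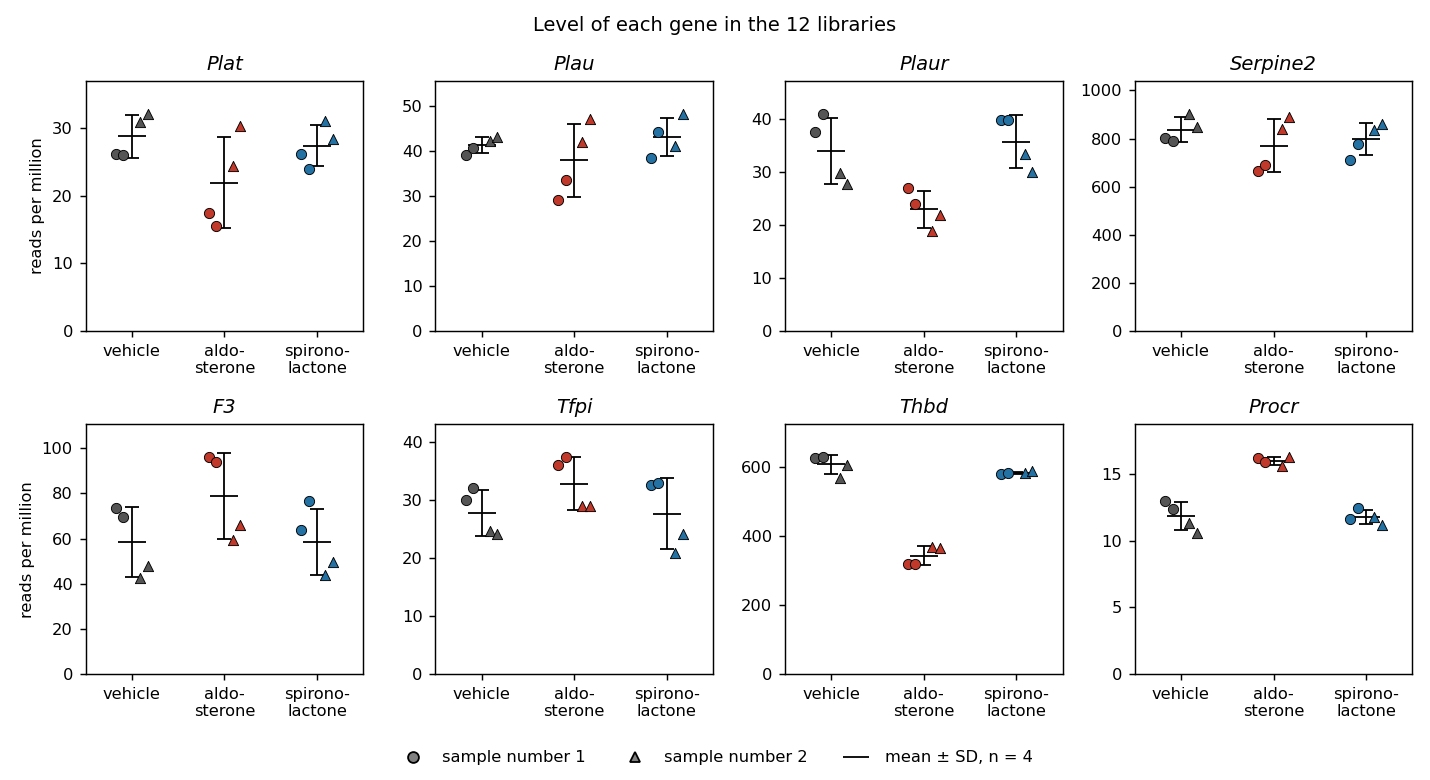
RPM of each gene (vertical axis from 0) in the 12 libraries by treatment. Circles are sample number 1, triangles sample number 2, and bars are mean ± SD of 4 libraries. Thbd falls and Procr rises with aldosterone without overlap, while F3, Tfpi, Plat and Plaur also differ between sample numbers.

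Thbd encodes thrombomodulin, the cell surface receptor that binds thrombin, and lies at chr2:148246386-148250108 on the minus strand (ENSMUSG00000074743). Coordinates of genes are those in the tables, on mm39 by the submitters' processing notes. Thbd had 627 and 629 RPM in the vehicle libraries of sample number 1 and 568 and 605 RPM in those of sample number 2. With aldosterone it had 320.2 and 318 RPM in sample number 1 and 368 and 364 RPM in sample number 2. All 4 aldosterone libraries thus lay below all 4 vehicle libraries. The mean fell from 607 ± 28.4 to 343 ± 27.2 RPM, a log2 fold change of -0.79 (SE 0.061, adjusted p = 1.5e-07), and the exact permutation test over libraries gave p = 0.0286, the smallest that 4 against 4 allows. The log2 difference was -0.92 in sample number 1 and -0.65 in sample number 2. A limma test of the difference between these effects, over all genes, gave an adjusted p of 0.853 (unadjusted p = 0.00144). Leaving out any 1 library kept Thbd past the threshold, with adjusted p-values between 0.000157 and 0.000625.

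Procr encodes the endothelial protein C receptor, which presents protein C to the complex of thrombin and thrombomodulin (chr2:155593037-155597391, plus strand, ENSMUSG00000027611). Its vehicle libraries had 12.9 and 12.4 RPM in sample number 1 and 11.3 and 10.6 RPM in sample number 2. Its aldosterone libraries had 16.1 and 15.9 RPM in sample number 1 and 15.6 and 16.2 RPM in sample number 2. The groups did not overlap, and the spread between aldosterone plates was small (SD 0.298 RPM, n = 4). Procr rose by 0.48 on the log2 scale (1.39-fold, SE 0.088, adjusted p = 0.00159, exact permutation p = 0.0286), and it kept its call without any 1 library. Procr had 217 to 491 reads in these libraries, against 6130 to 17948 for Thbd.

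The 2 proteins act at the same step, so the ratio of Thbd to Procr per length was formed within each library, as 1 of 4 ratios between functional partners. It was between 26.4 and 31.0 in the vehicle libraries and between 10.8 and 12.9 in the aldosterone libraries. The ratio was thus lower in every aldosterone library, with a log2 difference of -1.26 (exact permutation p = 0.0286). This separation follows from that of Thbd and of Procr described above, so the p-value is no further test. Both genes are best known from endothelium, and the summed level of the 7 endothelial markers was also higher with aldosterone (29.0 to 31.0 RPM) than with vehicle (20.7 to 22.9 RPM). This sum came mostly from Tek, with a mean of 18.8 RPM with vehicle and 21.6 RPM with aldosterone, and from Kdr, with 1.91 and 6.87 RPM. Pecam1 had means of 0.278 and 0.117 RPM, and Tie1 was at 3 reads or fewer in every library. Cdh5 had means of 0.401 and 0.628 RPM, Vwf of 0.404 and 0.550 RPM and Emcn of 0.114 and 0.187 RPM. The part of the endothelial markers in these results was not tested, and fewer cells of a kind and less RNA per cell cannot be told apart in such bulk samples.

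Plaur encodes the urokinase receptor, a cell surface anchor that focuses plasmin formation at the membrane (chr7:24161909-24175393, plus strand, ENSMUSG00000046223). In the vehicle libraries it had 37.4 and 40.9 RPM in sample number 1 and 29.8 and 27.8 RPM in sample number 2. In the aldosterone libraries it had 27.0 and 23.9 RPM in sample number 1 and 18.8 and 21.9 RPM in sample number 2. Within each sample number both aldosterone plates lay below both vehicle plates. Across sample numbers the groups touched, just apart in RPM and overlapping in the normalized counts on which the tests ran. Plaur fell by 0.52 on the log2 scale (SE 0.13, adjusted p = 0.0141, exact permutation p = 0.0571). This call was lost without any 1 of 7 of the 8 libraries, with an adjusted p of up to 0.196. Only without the library of aldosterone replicate 1_1 was it kept (adjusted p = 0.0479), and with the block it had an SE of 0.066 and an adjusted p of 3.03e-07.

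F3 encodes tissue factor, the receptor for clotting factor VII that starts the cascade (chr3:121517186-121528697, plus strand, ENSMUSG00000028128). It had 73.6 and 69.7 RPM with vehicle and 96.2 and 93.9 RPM with aldosterone in sample number 1. In sample number 2 it had 42.5 and 47.8 RPM with vehicle and 59.4 and 66.1 RPM with aldosterone. Both aldosterone plates were thus above both vehicle plates within each sample number, while the aldosterone plates of number 2 were below the vehicle plates of number 1. The log2 fold change was 0.48, with an SE of 0.18 and an adjusted p of 0.115 in the fit with treatment alone (exact permutation p = 0.171). With the sample number as a block the SE was 0.051 and F3 passed (adjusted p = 1.19e-08). The difference was 0.46 within sample number 1 and 0.51 within sample number 2.

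Tfpi encodes the inhibitor of tissue factor with bound factor VII (chr2:84263199-84307119, minus strand, ENSMUSG00000027082). It had 29.97 and 32.04 RPM with vehicle and 35.9 and 37.4 RPM with aldosterone in sample number 1, and 24.7 and 24.1 RPM with vehicle and 28.9 and 28.9 RPM with aldosterone in sample number 2. As for F3, the groups were separate within each sample number and overlapped across them. The log2 fold change was 0.28 (SE 0.11, adjusted p = 0.152), and Tfpi passed with the block (SE 0.058, adjusted p = 4.39e-04). The blocked calls of F3 and Tfpi were both kept without any 1 library. The ratio of F3 to Tfpi per length, the initiator over its inhibitor, was between 3.72 and 5.30 with vehicle and between 4.44 and 5.79 with aldosterone. The ratios overlapped across sample numbers (log2 difference 0.20, exact permutation p = 0.2). Within each sample number both aldosterone plates had the higher ratio, at 5.79 and 5.43 against 5.30 and 4.70 in number 1 and at 4.44 and 4.94 against 3.72 and 4.28 in number 2. An exact permutation of treatments within sample numbers gave p = 0.0556, the smallest that its 36 arrangements allow, so this test cannot reach 0.05.

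Plat encodes the tissue plasminogen activator (chr8:23247743-23272860, plus strand, ENSMUSG00000031538). It had 26.2 and 26.0 RPM with vehicle and 17.5 and 15.6 RPM with aldosterone in sample number 1, and 30.8 and 32.1 RPM with vehicle and 24.4 and 30.2 RPM with aldosterone in sample number 2. The aldosterone plates were the lower ones in each sample number, with a log2 difference of -0.61 in number 1 and -0.18 in number 2, and the groups overlapped across sample numbers. The pooled log2 fold change was -0.39 (SE 0.15, adjusted p = 0.116), and Plat passed with the block (SE 0.079, adjusted p = 3.62e-04). This blocked call was kept without vehicle replicate 2_1 or aldosterone replicate 2_2 and lost without any 1 of the other 6 libraries, with an adjusted p of up to 0.122 (limma). The difference between the effects of the 2 sample numbers had an adjusted p of 0.895 (limma, unadjusted p = 0.0102).

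Plau encodes urokinase, the ligand of Plaur (chr14:20886728-20893453, plus strand, ENSMUSG00000021822). It had 39.1 and 40.8 RPM with vehicle and 29.0 and 33.6 RPM with aldosterone in sample number 1. In sample number 2 it had 42.2 and 43.0 RPM with vehicle and 42.1 and 47.0 RPM with aldosterone. The plates were thus lower with aldosterone in number 1 and overlapped in RPM in number 2, and Plau passed in neither fit (log2 fold change -0.10, SE 0.105, adjusted p = 0.653, and 0.385 with the block). The 95% confidence interval of the fold change ran from 0.798 to 1.09. The ratio of Plau to Plat per length was between 3.53 and 4.13 with vehicle and between 4.10 and 5.68 with aldosterone, a log2 difference of 0.29 (exact permutation p = 0.0571). The ratio of Plau to its receptor Plaur differed by 0.42 on the log2 scale (exact permutation p = 0.229). Both ratios were higher in both aldosterone plates than in both vehicle plates within each sample number, where the exact permutation p was 0.0556, the smallest possible.

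Serpine2 encodes protease nexin-1, a serpin that inhibits thrombin and both activators (chr1:79771914-79838897, minus strand, ENSMUSG00000026249). It had 804 and 791 RPM with vehicle and 667 and 689 RPM with aldosterone in sample number 1, and 904 and 849.7 RPM with vehicle and 838 and 891 RPM with aldosterone in sample number 2. The vehicle plates were the higher ones in number 1, and the groups overlapped in number 2. Serpine2 did not pass in either fit (log2 fold change -0.09, SE 0.077, adjusted p = 0.613, and 0.205 with the block), and the 95% confidence interval of the fold change ran from 0.841 to 1.06. No other gene in the tables overlapped the span of any of the 8 genes.

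The comparison of aldosterone with spironolactone shares the 4 aldosterone libraries with the comparison above, so the 2 are not independent. Of the 8 genes, 3 passed, beside 8.88% of the 27631 genes tested. With only the 15300 genes of at least 10 normalized counts on average tested, 2571 passed. Thbd was lower (log2 fold change -0.72, adjusted p = 9.05e-08), Plaur was lower (-0.59, adjusted p = 0.00222) and Procr was higher (0.49, adjusted p = 4.46e-04). In the spironolactone libraries Thbd had 579.8 and 581 RPM in sample number 1 and 582 and 588 RPM in sample number 2, all above the aldosterone libraries. Plaur had 39.8 RPM in both libraries of sample number 1 and 33.3 and 29.9 RPM in those of sample number 2, and here the 2 groups did not overlap. Its call was kept without aldosterone replicate 1_1 and without spironolactone replicate 2_2, and lost without any 1 of the other 6 libraries (adjusted p of up to 0.117). Procr had between 11.1 and 12.4 RPM with spironolactone, below all aldosterone libraries. With the block 6 of the 8 genes passed, beside 14.4% of all genes, F3 at a log2 fold change of 0.48 (adjusted p = 3.4e-08), Tfpi at 0.31 (adjusted p = 3.32e-04) and Plat at -0.32 (adjusted p = 0.00442) being the added ones. With 1 library left out of the blocked fit, the log2 fold change of Tfpi ranged from 0.25 to 0.34 with its call kept. That of Plat ranged from -0.42 to -0.24, and its call was kept only without aldosterone replicate 2_2 (adjusted p of up to 0.277 otherwise). Without the block, Tfpi came to 0.18 without spironolactone replicate 2_1 and Plat to -0.18 without aldosterone replicate 1_2. The ratio of Thbd to Procr per length was between 25.5 and 28.7 with spironolactone. The other ratios were less separate from spironolactone than from vehicle. Plau to Plat overlapped between aldosterone and spironolactone in both sample numbers, Plau to Plaur in number 1 and F3 to Tfpi in number 2. Exact permutation within sample numbers gave p = 0.278, 0.111 and 0.167. In number 2, F3 to Tfpi was also higher in both spironolactone plates than in both vehicle plates.

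The comparison of spironolactone with vehicle shares its libraries with the other 2 comparisons. None of the 8 genes passed, by limma with or without the block, DESeq2, edgeR or limma-voom, and 0 of the 8 had an unadjusted p under 0.05 by limma. Of the 27598 genes tested by limma, 0% passed without the block, with 1251 at an unadjusted p under 0.05, and 0.351% passed with it. On the recovered reads DESeq2 called 13 genes and edgeR 0. The fold changes of the 8 genes lay between 0.948 for Plat and 1.05 for Plaur. The 95% confidence interval was narrowest for Thbd, from 0.886 to 1.04, and wide for F3, from 0.781 to 1.29, whose libraries ranged from 44.0 to 76.7 RPM with spironolactone and from 42.5 to 73.6 RPM with vehicle.

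**Figure D3:**
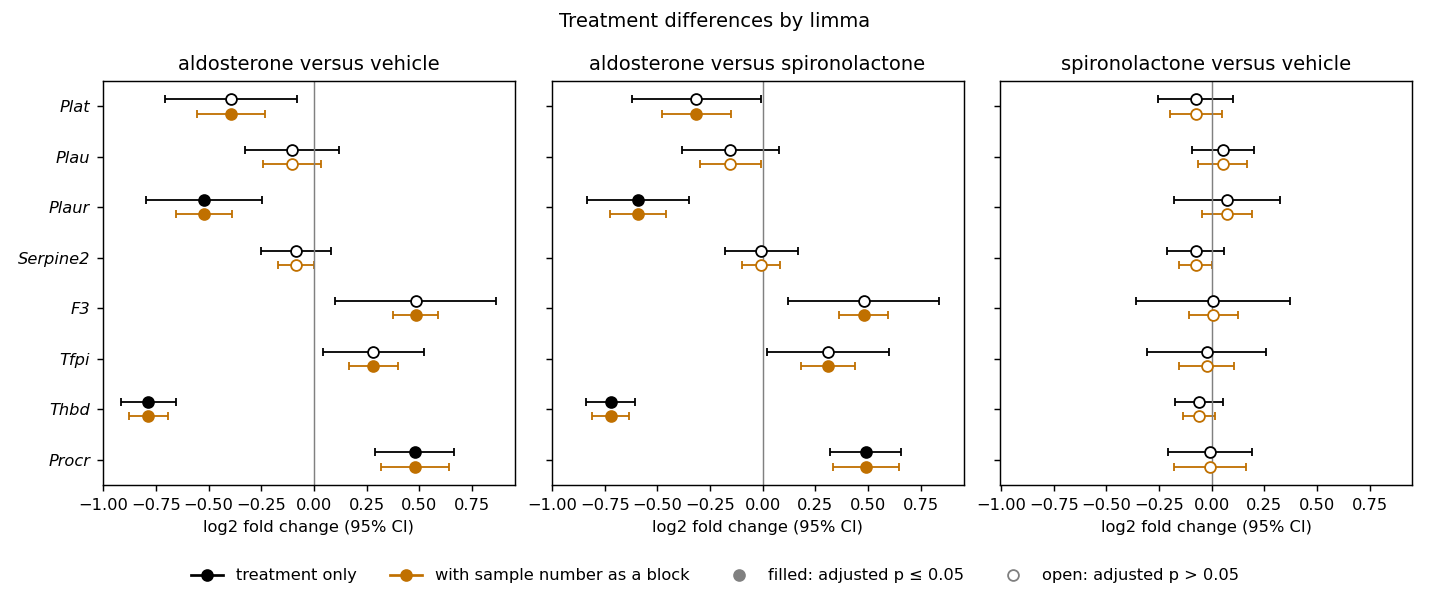
Log2 fold change with 95% confidence interval (horizontal axis) of each gene in the 3 comparisons, by limma with treatment alone (black) and with the sample number as a block (orange). Filled points have an adjusted p of at most 0.05. Thbd, Plaur and Procr are filled in both fits of both comparisons with aldosterone, F3, Tfpi and Plat with the block alone, and no point is filled for spironolactone versus vehicle.

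The sample number itself was compared over all 12 libraries with treatment as a term, a comparison added after the values were seen. Of the 8 genes, 5 differed between the sample numbers, beside 9.90% of the 28995 genes tested. All 8 genes averaged 10 or more reads, as did only 15313 of the genes tested. The share among those was not computed. F3 was 1.56-fold higher in sample number 1 (log2 difference of number 2 from number 1 of -0.64, SE 0.052, adjusted p = 2.25e-06). Tfpi was 1.35-fold higher (adjusted p = 2.08e-05) and Plaur 1.31-fold higher (adjusted p = 1.4e-04) in sample number 1. Plat was 1.29-fold higher (adjusted p = 0.00627) and Serpine2 1.14-fold higher (adjusted p = 0.00674) in sample number 2. These 5 calls were kept when any 1 of the 12 libraries was left out. Thbd and Procr did not pass, with log2 differences of 0.0044 (SE 0.041) and -0.12 (SE 0.050). Plau, at a log2 difference of 0.20 (SE 0.072), had an adjusted p of 0.109 by limma and 0.0261 by edgeR. For F3 and Tfpi the log2 difference between sample numbers was larger in size than that between aldosterone and vehicle, while Thbd and Procr showed the opposite order.

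**Figure D4:**
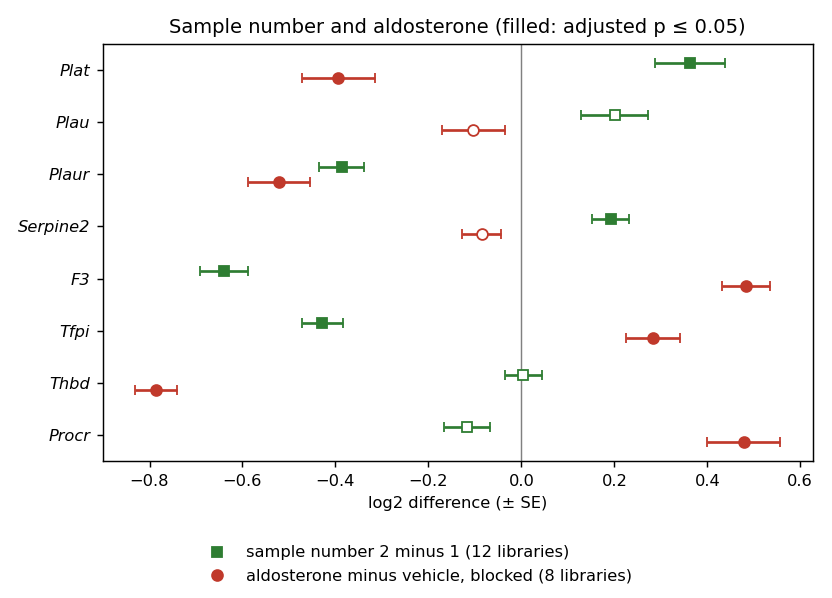
Log2 difference ± SE (horizontal axis) of each gene between sample numbers 2 and 1 over 12 libraries (green squares) and between aldosterone and vehicle with the sample number as a block over 8 libraries (red circles). Filled points have an adjusted p of at most 0.05. F3 and Tfpi lie to the left for the sample number and to the right for aldosterone, while Thbd is near 0 for the sample number.

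Upstream sequences were read for the genes present in a RefSeq table of promoters (build GRCm38.p6), in which 5 of the 8 genes had 6 promoters. Thbd, Plat and Plau had none there, so no motif was searched for them. The 250 bases before the start are shown for Procr, Plaur and F3, since these 3 genes differed with aldosterone in the blocked fit and hold the motif of the factor AP-1, printed in capitals. The motif was searched as TGACTCA and, for the other strand, TGAGTCA, and 4.46% of the 32851 promoters in the table hold it in the same window.
Procr, chr2:155750967-155751216, plus strand: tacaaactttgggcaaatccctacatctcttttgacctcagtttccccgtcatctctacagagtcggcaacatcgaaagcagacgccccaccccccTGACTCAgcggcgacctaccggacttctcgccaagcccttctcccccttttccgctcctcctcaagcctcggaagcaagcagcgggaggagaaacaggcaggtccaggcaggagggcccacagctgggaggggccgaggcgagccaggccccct
Plaur, chr7:24462233-24462482, plus strand: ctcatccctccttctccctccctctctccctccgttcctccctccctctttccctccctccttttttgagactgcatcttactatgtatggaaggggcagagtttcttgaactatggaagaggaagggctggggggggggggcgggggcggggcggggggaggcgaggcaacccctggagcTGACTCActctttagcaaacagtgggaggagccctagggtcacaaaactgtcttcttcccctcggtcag
F3, chr3:121723287-121723536, plus strand: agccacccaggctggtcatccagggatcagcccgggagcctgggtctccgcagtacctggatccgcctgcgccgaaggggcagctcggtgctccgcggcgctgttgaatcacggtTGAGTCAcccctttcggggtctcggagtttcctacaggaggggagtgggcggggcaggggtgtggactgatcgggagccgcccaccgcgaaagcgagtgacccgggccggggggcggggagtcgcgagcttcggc
The motif starts 154 bases before the start of Procr, 69 before that of Plaur and 135 before that of F3. Procr and F3 were higher and Plaur was lower with aldosterone, and a part of the motif in these differences was not tested. Among other motifs, the GC box, GGGCGG or CCGCCC, was found upstream of F3, Plaur, Serpine2 and both promoters of Tfpi, and 32.7% of all promoters hold it. Procr holds no GC box in this window, and the TATA box, TATAAA or TTTATA, was found in 1 promoter of Tfpi and in 12.4% of all. The steroid receptor half-site, AGAACA or TGTTCT, was in none of the 6 promoters and in 16.1% of all. Neither its palindrome of 2 half-sites, 3 bases apart, nor the kappaB motif was found in the 6 promoters.

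Other genes of the plasminogen system were taken from a list of 28, of which 27 were in the table of aldosterone and vehicle. Of these, 8 passed, 5 higher and 3 lower, beside 10.4% of all genes, and 12 passed with the block, beside 16.7% of all genes. The median log2 fold change of the list was 0.08. Serpina3n, a secreted serpin, had the largest increase, from 15.4 ± 0.473 RPM to 207 ± 29.4 RPM (log2 fold change 3.78). The study calls it an ortholog of human antichymotrypsin and names it among its most increased genes. Any part of Serpina3n in plasminogen activation was not tested. A2m, the broad protease inhibitor alpha-2-macroglobulin, rose by 1.88 on the log2 scale from a low level of 0.359 ± 0.164 RPM. S100a10 and Anxa2, whose products form a surface complex that binds plasminogen and its tissue activator, rose by 1.07 and 0.36 on the log2 scale. The intracellular serpin gene Serpinb6a rose by 0.54. Hgf, encoding hepatocyte growth factor, which shares the domain plan of plasminogen, fell from 45.5 ± 4.37 to 14.9 ± 1.32 RPM (log2 fold change -1.57, adjusted p = 4.3e-09). The receptors Igf2r and Mrc2 fell by 0.42 and 0.40 on the log2 scale.

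Lrp1, an endocytic receptor that clears complexes of activators and serpins, was at 3232 ± 173 RPM with vehicle and 3317 ± 345 RPM with aldosterone and did not pass (log2 fold change 0.08, adjusted p = 0.689).

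Of a list of 38 genes of the clotting cascade, 33 were in the table and 7 passed, 4 higher and 3 lower, while 12 passed with the block, beside 10.4% and 16.7% of all genes in the respective fits. The median log2 fold change of the list was 0.23, and 19 of its genes averaged 10 or more normalized counts. Gas6, a vitamin K-dependent ligand of receptor kinases, rose from 981 ± 147 to 2594 ± 197 RPM (log2 fold change 1.45). Serping1, which encodes the C1 inhibitor of the contact system, rose by 0.62 on the log2 scale, and Anxa5, whose product covers phosphatidylserine, rose by 0.31. F13a1, the catalytic subunit of the enzyme that cross-links fibrin, fell from 7.15 ± 2.43 to 1.43 ± 0.891 RPM (log2 fold change -2.38, adjusted p = 2.25e-04). F5, encoding the cofactor of factor X, fell by 0.80 on the log2 scale from 3.27 ± 0.705 RPM, and Lman1, a receptor that carries clotting factors out of the endoplasmic reticulum, fell by 0.20. The calls of F5, Lman1 and Anxa5 were lost without any 1 of 6 or 7 of the 8 libraries. F7, encoding the ligand of tissue factor, was below the minimum mean for naming and was chosen after its values were seen. It had 0 to 2 reads in the vehicle libraries and 13 to 24 reads in the aldosterone libraries, and passed the test with an adjusted p of 1.63e-04. Against spironolactone, 8 plasminogen genes and 7 clotting genes passed (12 and 10 with the block), beside 8.88% of all genes (14.4% with the block), and for spironolactone against vehicle 0 of either list passed without the block by limma and 1, S100a10, with it.

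**Figure D5:**
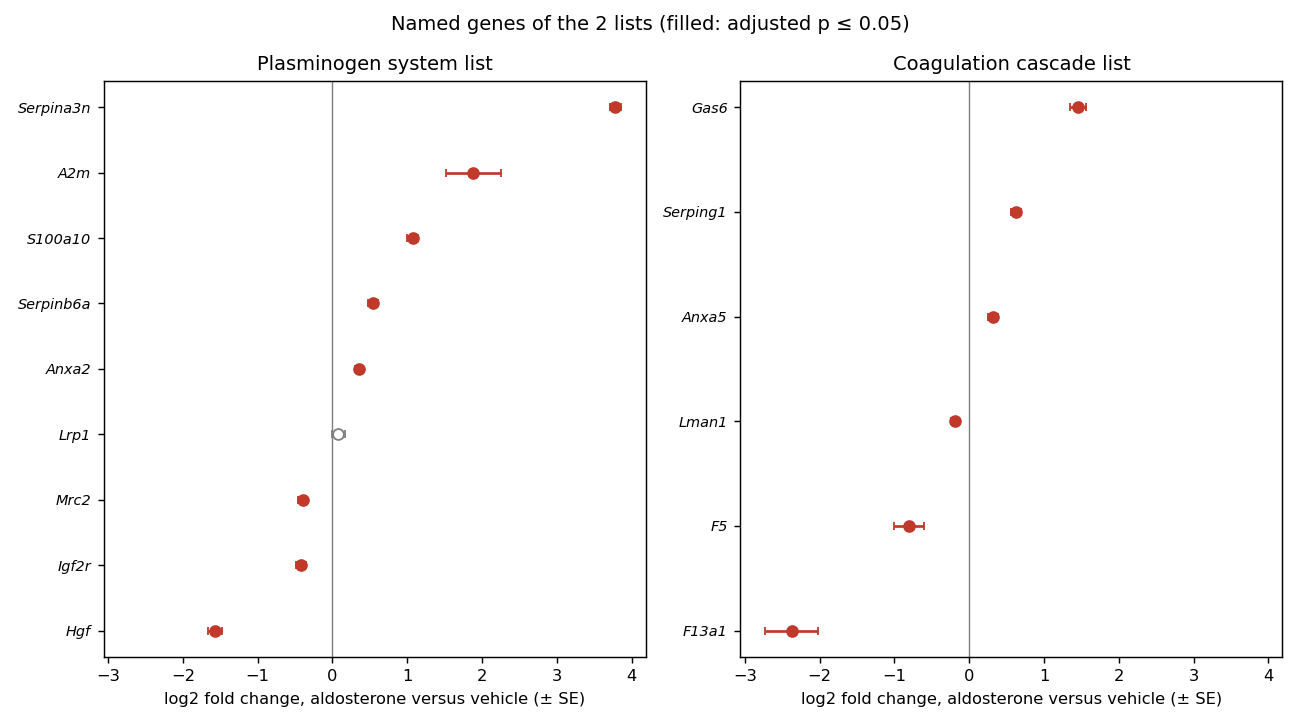
Log2 fold change ± SE of aldosterone versus vehicle (horizontal axis) for the genes of the plasminogen list and the clotting list named by the rule on size and test, with F13a1 and Lrp1. Filled red points have an adjusted p of at most 0.05, and Lrp1 is the open point. Serpina3n lies farthest to the right and Hgf farthest to the left in the plasminogen panel, and Gas6 and F13a1 in the clotting panel.

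For each of the 8 genes, the genes whose log2(RPM + 1) followed it most closely over the 12 libraries are given by Pearson's r. These points share libraries and depth, and each r reflects treatment and sample number together. Thbd was followed by Timp3 (r = 0.996) and Nr1d2 (r = 0.992), and Procr by Mgst1 (r = 0.984) and Tmod3 (r = 0.982). Plaur was followed by Fam83d (r = 0.977) and Aldh1a3 (r = 0.971). F3 was followed by Jak1 (r = 0.977) and Thbs4 (r = 0.976), and Tfpi by Oxr1 (r = 0.974) and Fgf9 (r = 0.968). Plat was followed by Tef (r = 0.955) and Ndnf (r = 0.948), Plau by Wdr5b (r = 0.933) and Arhgap18 (r = 0.907), and Serpine2 by Srpx (r = 0.974) and Rps6ka3 (r = 0.963). Among the 8 genes themselves the highest r was that of F3 with Tfpi (0.941) and the lowest that of Thbd with Procr (-0.915).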

How the data were processed

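Poly(A) RNA of 12 plates of fibroblasts was sequenced. Per the submitters' processing notes, reads were aligned with HISAT2 (version 2.0.5) and counted with featureCounts (version 1.5.0-p3) on mm39, whereas the methods name mm9. Gene starts in the tables equalled those of an mm9 annotation for 39 of 20676 matched genes and 0 of the 8 genes. Use of strand in counting is not given in the sources used here. The deposited tables hold signal values, gene counts that the authors divided by a size factor per library, together with the authors' fold changes and p-values of each comparison, which were not used. Other deposited columns (gene name, position, length) were used as annotation. Values were whole multiples of a step (100% within 0.01), which gave the reads used for RPM. The normalized values went into limma (version 3.58.1, R 4.3.3) on log2(value + 1), which understates the change of low genes, with a trended prior and the adjusted p over all genes of a table. Alternatives used edgeR (4.0.16), DESeq2 (1.42.0) and limma-voom on the recovered reads. The test was checked on simulated data with independent libraries and log2 changes of 1 or more in size, larger than those of the 8 genes. The simulation held no shared effect of sample number or mouse, so it cannot show how the fits behave with such effects. Single values were compared by two-sided exact permutation tests.

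Over genes with at least 10 reads on average, deviations from treatment means correlated with r between 0.188 and 0.41 in all 24 pairs of libraries with the same sample number and different treatments, so the sample numbers were taken to pair the libraries. Libraries of a group differed by more than sampling noise.

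The 8 genes and the lists were chosen with earlier results of these data known. List genes were named if they averaged 10 or more normalized counts and passed, at most 8 per list by size of change, plus F13a1 and Lrp1, while 1 further gene of the rule is not reported here, and for likeness the 2 genes with the highest r. The precision is limited by 4 plates per group from 2 mice.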

Additional observations from a re-analysis of the deposited data

Results flagged for a closer look

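Among 24 groups of 4 libraries (8 genes in 3 treatments), no library stood apart by Dixon's test, which flags about 1 group in 20 by chance. That rate is for independent values. Where a gene differed between sample numbers, its libraries lay in pairs, and the test could hardly flag 1 of them. For Plau and Tfpi, all plates of a treatment differed from all control plates in normalized counts, in opposite directions in the 2 sample numbers. Plau differed between aldosterone and vehicle by -0.30 on the log2 scale in sample number 1 and by 0.093 in sample number 2, and limma's test of this difference gave an adjusted p of 0.895 (unadjusted p = 0.00455). Tfpi differed between spironolactone and vehicle by 0.074 in sample number 1 and by -0.12 in sample number 2 (limma, unadjusted p = 0.127 for the difference). For aldosterone against vehicle this test called 4 of 27319 genes, none of the 8 genes among them.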

How the results depend on the processing

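The calls of Thbd and Procr with aldosterone held under DESeq2, edgeR, limma-voom, TMM scaling, a pseudocount of 0.5, a minimum mean of 10, the block and every left-out library. The count of the 8 genes that passed, 3 in each comparison with aldosterone, became 6 with the sample number as a block, 1 with its libraries averaged, 0 in sample number 1 alone and 1 in sample number 2 alone, settings with 2 values per group except the block. With a smallest log2 change of 0.58 in place of 1, the count was 1 against vehicle and 2 against spironolactone. Thbd was the gene kept with averaged libraries, where Procr had an adjusted p of 0.101 against vehicle (limma). Of the listed pathway genes 15 passed, and 24 with the block, 7 with averaged libraries, 1 in sample number 1 and 6 in sample number 2. With 1 library left out, the counts were 2 to 3 of the 8 genes in either comparison with aldosterone, 0 with spironolactone against vehicle and 12 to 14 pathway genes. In the blocked fit, a set of values added after seeing the data, 5 to 6 of the 8 genes passed with 1 library left out, Plat being the one lost.

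Directions turned only for changes that had not passed. In sample number 2 alone, aldosterone against vehicle gave 0.011 for Serpine2, 0.093 for Plau and -0.022 for Lrp1 on the log2 scale, and against spironolactone 0.060 for Serpine2 and 0.032 for Plau. Spironolactone against vehicle gave -0.0026 for F3 by edgeR, -0.0037 by limma-voom and -0.037 in sample number 1, 0.063 for Procr in number 2 and 0.074 for Tfpi in number 1. With 1 library left out, Plau ranged from -0.20 to 0.0075 for aldosterone against vehicle and Serpine2 from -0.068 to 0.049 against spironolactone. For spironolactone against vehicle the ranges were -1.2e-05 to 0.103 for Plau, -0.022 to 0.17 for Plaur, -0.14 to 0.14 for F3, -0.065 to 0.044 for Procr and -0.12 to 0.103 for Tfpi. The difference of Thbd between sample numbers ranged from -0.017 to 0.034. The cause was not tested.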
